A study of Mus musculus with 16 samples.

Results

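The cytosolic ribosome is built from ribosomal RNA and one copy of most of its ribosomal proteins, and every cell that makes protein needs it. The genes of the large subunit carry symbols starting with *Rpl* and those of the small subunit symbols starting with *Rps*, and the acidic stalk proteins (*Rplp0*, *Rplp1*, *Rplp2*) and the laminin receptor homolog *Rpsa* have names of their own. Their mRNAs are known for a run of pyrimidines that starts right at the 5' end (a 5' terminal oligopyrimidine, or TOP, start), through which mTORC1 signaling controls their translation. The exocrine pancreas is known for one of the highest rates of protein synthesis among tissues, since its acinar cells make digestive enzymes for export.

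Members were taken by symbol from the table of raw read counts, as *Rpl* or *Rps* followed by a number, with or without a final a, x or l, together with *Rplp0*, *Rplp1*, *Rplp2* and *Rpsa*. Ribosomal S6 kinases and symbols of processed pseudogenes (-ps) were left out. The table held 81 such genes, and 75 of them passed the filter on low counts, 44 of the large and 31 of the small subunit, among 13660 genes tested.

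Whole pancreas was profiled by bulk poly(A) RNA-seq in 16 male C57BL6/J mice euthanized at 12 weeks of age, each library from 1 mouse. WT mice (n = 5) were lean controls. Leptin-deficient Lep(ob/ob) mice (n = 7), which carry their mutation in every cell and are obese, drank the same control water. CCKR-I Lep(ob/ob) mice (n = 4) carried the same genotype and received an antagonist of the cholecystokinin receptors in drinking water for 6 weeks from 6 weeks of age, 2 mice with proglumide at 0.1 mg/mL and 2 with lorglumide at 0.05 mg/mL. Per the labels, WT mice were bred in house and Lep(ob/ob) mice were purchased, whereas the study's methods give both as purchased, so it is not settled here whether the source of the mice differed with genotype. Final body weight was 24 to 32.3 g for WT mice, 48.6 to 54.2 g for Lep(ob/ob) mice and 52.1 to 57.3 g for CCKR-I mice. The labels also give a batch, here A (3 WT and 4 Lep(ob/ob) mice) or B (2 WT, 3 Lep(ob/ob) and all 4 CCKR-I mice). No CCKR-I mouse was in batch A, so the treatment was compared with untreated mice through a model that held batch as a term.

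Total counts were 9.87 to 34.5 M per mouse, with a median of 15.0 M. All 12 acinar markers were counted in every mouse, and their mean log2 CPM (log2 of the counts per 1 M) was 12.31 to 13.33 for mice of batch A, against 10.73 to 12.33 for mice of batch B. The 50 most counted genes took 78.9 to 84.4% of a mouse's counts in the first batch and 48.6 to 76.9% in the second. Adipocyte markers (8 of 8 measured, none at 0 in any mouse) averaged 2.97 to 4.58 log2 CPM among WT and 2.86 to 5.39 among Lep(ob/ob) animals of batch A. Among batch B animals they averaged 3.62 to 3.71 (WT), 4.35 to 7.02 (Lep(ob/ob)) and 4.03 to 6.38 (CCKR-I). In whole tissue, fewer cells of a type and less RNA per cell cannot be told apart.

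RefSeq start sites (GRCm38.p6) were available for 60 of the 81 members. The 30 bases around the start are shown for 4 members with a TOP start and 4 other members named in the results below. Each has 10 bases before the annotated start and 20 from it on, 5' to 3' on the gene's own strand. Capitals mark the pyrimidines that run from a C at the annotated start.
Rps6 (chr4:86857348-86857377, minus strand): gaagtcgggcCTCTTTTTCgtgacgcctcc
Rpl35 (chr2:39005112-39005141, minus strand): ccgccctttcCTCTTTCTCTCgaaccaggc
Rpl38 (chr11:114668570-114668599, plus strand): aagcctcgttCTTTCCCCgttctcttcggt
Rplp2 (chr7:141447641-141447670, plus strand): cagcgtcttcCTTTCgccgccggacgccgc
Rps24 (chr14:24490668-24490697, plus strand): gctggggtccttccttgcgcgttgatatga
Rps2 (chr17:24720053-24720082, plus strand): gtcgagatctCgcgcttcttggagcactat
Rpl4 (chr9:64173377-64173406, plus strand): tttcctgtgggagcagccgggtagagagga
Rpl41 (chr10:128549149-128549178, minus strand): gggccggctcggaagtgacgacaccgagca

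A C at the start followed by pyrimidines, at least 5 bases in all, was found at an annotated start of 13 of the 60 members (21.7%), against 3.01% of 27025 genes with a start site. In *Rps24* and *Rpl41* no such run began at the annotated base, which depends on where the annotation places the start. The letters CCGGAAG, the core bound by ETS factors, were found between 250 bases before and 50 after the start of 25 members (41.7%), against 9.93% of all genes. The letters AAGATGGCG, part of the YY1 motif, were in 3 members (5%) against 1.64%, and TATAAA, the TATA box, in 6 members (10%) against 15.7%. All were searched on both strands. CCGGAAG and AAGATGGCG share the letters AAG and can overlap, and a match is a description of the sequence.

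Levels were compared between genes per length of a chosen transcript, as log2 CPM less the log2 of its length in kilobases. On this scale the 74 coding members had a median level of 8.43 in batch A and 8.88 in batch B. *Rps24*, a small subunit protein, had the highest mean over all mice, at 11.01 ± 1.25 (SD, n = 16), followed by *Rpl32* at 10.48 ± 0.78 and *Rpl41*, which encodes the shortest of the ribosomal proteins, at 10.44 ± 0.66. The order was not the same in the batches. *Rpl41* ranked 1 and *Rps24* ranked 4 in batch A, at 10.08 ± 0.24 and 9.86 ± 0.19 (SD, n = 7), a difference no larger than the SD of *Rpl41*, whereas *Rps24* ranked 1 in batch B, at 11.91 ± 0.91 (n = 9). *Rpl4*, a large subunit protein, ranked 10 in batch A and 41 in batch B, and the stalk protein *Rplp0* ranked 13 and 42. *Rps4x*, the X-linked form of a small subunit protein, moved less, from rank 17 to rank 23.

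Paralogs with restricted expression were at or near 0 reads. *Rpl10l*, *Rpl39l* and *Rpl3l*, known from testis or muscle, had at most 0, 2 and 2 reads in any mouse. *Rpl26* (0 reads in all 16 mice), *Rpl30* (0 to 4 reads) and *Rps27* (0 to 12 reads) also failed the filter, although they encode proteins of every ribosome, and *Rpl34* passed it with 0 to 21 reads per mouse. Stretches of 100 bases found in another gene of the annotation made up 98.37% of the *Rps27* transcript, 53.5% of that of *Rpl30*, 36.77% of that of *Rpl26* and 30.97% of that of *Rpl34*, against 91.57% of that of *Rpl10*, which was counted at 8.62 to 10.03 log2 CPM. A listed low count of such a gene was therefore not read as a low level. Of the 74 coding members tested, 33 shared over 50% of their stretches with other genes and 66 shared some with a pseudogene, so that part of their reads could have been split or dropped in counting. The rule on how the authors counted such reads was not given in the sources used here.

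**Figure D1:**
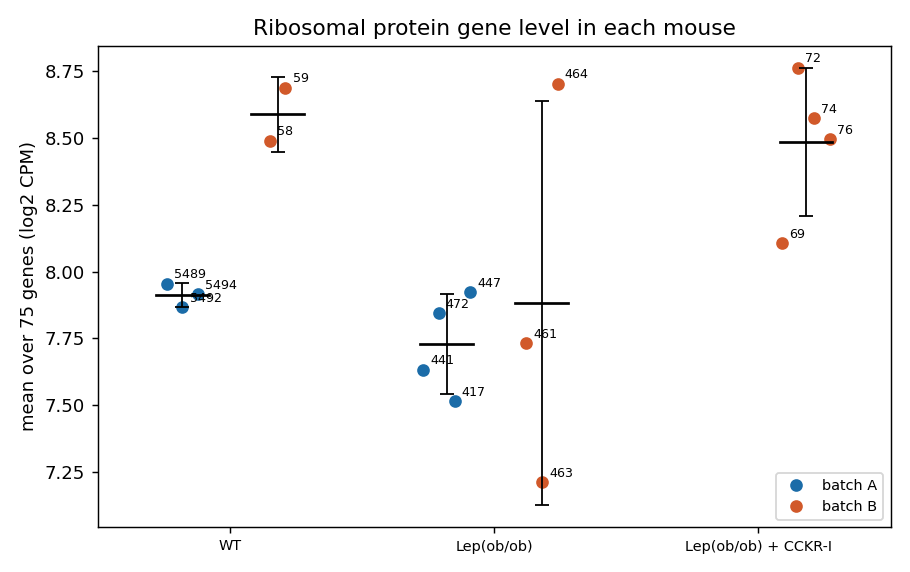
Mean log2 CPM over the 75 ribosomal protein genes (y axis) in each of 16 mice by group (x axis), with points coloured by batch and labelled with the mouse number, bars for the mean and error bars for the SD. Batch A mice sit between 7.51 and 7.95, and batch B mice spread from 7.21 to 8.76.

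The mean over the 75 genes is given first as a description of each mouse. In batch A, WT mice were at 7.95, 7.87 and 7.92 log2 CPM and Lep(ob/ob) mice at 7.63, 7.84, 7.51 and 7.92. In batch B, WT mice were at 8.49 and 8.69, Lep(ob/ob) mice at 7.73, 7.21 and 8.70, and CCKR-I mice at 8.11, 8.76, 8.58 and 8.50. The 3 Lep(ob/ob) mice of batch B thus held both the lowest mouse of all (463) and one of the highest (464), and the groups overlapped in both batches. Most members were lowest in the same mouse. Mouse 417 had the lowest level of its batch for 70 of the 75 genes, and mouse 463 for 68 of 75. The same count over all genes was not made. The 75 genes of a mouse share a library and its scaling, so they are not independent. Measured as a share of all counts, the 75 genes took 1.36 to 1.58% in mice of batch A and 2.05 to 7.30% in mice of batch B. This share does not depend on normalization between mice, but it moves with the share taken by the most counted genes.

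To ask whether obesity changed these genes, Lep(ob/ob) mice were compared with WT mice in a model with batch. Of 75 members, 1 was higher, none was lower and 6 had an unadjusted p under 0.05 (edgeR), against 9.07% of all genes called (5.93% higher, 3.14% lower) and 23.8% of all genes at that unadjusted p. The member that rose was *Rps4l*, and none of the 74 coding members passed the threshold. DESeq2 called *Rps4l* higher and *Rplp1* lower, against 12.4% of all genes called by that tool. The fold changes of members lay to one side. In 74 of 75 the log2 fold change was negative, with a median of -0.36 against -0.02 over all genes tested. They ranged from -0.74 to -0.01 in coding members, with a median SE of 0.22. Large and small subunit genes had like medians, -0.35 in 44 genes and -0.38 in 31.

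*Rps4l* is annotated as a transcribed processed pseudogene (chr6:148354656-148355598, mm10, plus strand, 1 exon) and was counted at 16 to 140 reads per mouse. In WT mice it was at 1.72, 1.37 and 1.41 log2 CPM in batch A and 1.32 and 0.12 in batch B. In Lep(ob/ob) mice it was at 2.44, 2.50, 2.45 and 2.25 in batch A and 1.24, 1.76 and 1.91 in batch B. All Lep(ob/ob) mice lay above all WT mice in batch A, while the groups overlapped in batch B. The log2 fold change was 0.93 ± 0.25 (SE), with an adjusted p of 0.0271 (edgeR). This call was lost in batch B alone (0.88, adjusted p = 0.380, edgeR), without a batch term (0.90, adjusted p = 0.103, edgeR) and when any one of WT mice 5492, 5494 and 59 or Lep(ob/ob) mouse 417 was left out (0.77 to 0.92, adjusted p 0.0513 to 0.0827). *Rps4x* itself, with 8.25 to 9.59 log2 CPM over all mice, had a log2 fold change of -0.21 ± 0.18 (adjusted p = 0.518, edgeR).

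Among the acidic stalk proteins, which recruit elongation factors to the ribosome, *Rplp1* came closest to the threshold. Its level was 9.00, 8.92, 9.01, 8.63 and 8.90 log2 CPM in the 5 WT mice, and 7.35, 8.42 and 8.69 for the lowest, median and highest of the 7 Lep(ob/ob) mice. Within each batch every Lep(ob/ob) mouse lay below every WT mouse, where 10.3% (batch A) and 15.7% (batch B) of all genes did so. In batch B the gap was narrow, at 8.60 in Lep(ob/ob) mouse 464 against 8.63 in WT mouse 58. The log2 fold change was -0.57 ± 0.19 with an adjusted p of 0.0723 (edgeR). It passed in 3 alternatives: with DESeq2 (adjusted p = 0.0268), in batch A alone (-0.40, adjusted p = 0.0458, edgeR) and without mouse 464 (-0.68, adjusted p = 0.0257, edgeR). In the other 20 alternatives it did not pass. The other stalk genes, *Rplp0* (-0.39 ± 0.20) and *Rplp2* (-0.24 ± 0.15), did not pass (adjusted p 0.252 and 0.375, edgeR).

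The most negative members were *Rps27l*, a paralog of *Rps27* known as a p53 target, at -0.74 ± 0.32, *Rpl34* at -0.70 ± 0.53 on very few reads, and *Rpl41* at -0.63 ± 0.27. Their adjusted p values were 0.167, 0.457 and 0.161 (edgeR). *Rpl41* was at 9.15, 8.97, 9.06, 9.87 and 10.31 log2 CPM in WT mice and at 8.03, 8.67 and 9.86 for the lowest, median and highest Lep(ob/ob) mouse. Its groups did not overlap within either batch, though in batch B Lep(ob/ob) mouse 464, at 9.86, lay just below WT mouse 58, at 9.87. *Rpl5* and *Rpl11*, which bind MDM2 when ribosome assembly is disturbed, had log2 fold changes of -0.31 ± 0.26 and -0.30 ± 0.19 (adjusted p 0.501 and 0.369, edgeR). *Rps6*, the target of the S6 kinases, was at -0.25 ± 0.26, *Rpsa* at -0.40 ± 0.22, *Rpl38* at -0.52 ± 0.24 and *Rps27a*, a fusion of ubiquitin with a ribosomal protein, at -0.54 ± 0.30, and none passed (adjusted p 0.199 to 0.597, edgeR).

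**Figure D2:**
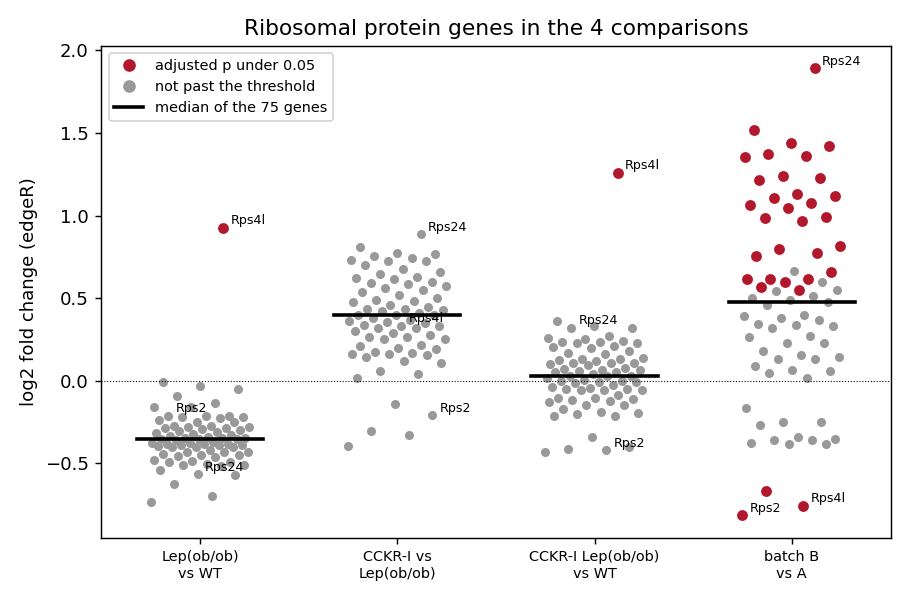
Log2 fold change (edgeR, y axis) of each of the 75 genes in 4 comparisons (x axis), in red where the adjusted p was under 0.05 and grey otherwise, with a bar for the median. Medians were -0.36, 0.40, 0.03 and 0.48 from left to right, and 33 red points stand in the comparison of batches against 1, 0 and 1 in the others. Of all genes, 35.7% were called between batches and 9.07%, 0.0586% and 5.57% in the others.

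Within batch A, 18 of 75 members were lower in every Lep(ob/ob) mouse than in every WT mouse and 1 was higher, against 10.3% and 10.7% of all genes. Within batch B, 5 were lower and none higher, against 15.7% and 17.2%. The median over members was -0.13 in batch A alone and -0.63 in batch B alone. A test of genotype by batch called 0 of 13189 genes in all, and the smallest unadjusted p among members was 0.0912 (edgeR). In that test the estimates of all 10 islet markers were negative (median -1.36). Those of all 8 adipocyte and all 7 lymphocyte markers tested were positive (medians 2.33 and 3.22). So were those of all 7 macrophage, all 6 stroma and 10 of 12 acinar markers (medians 1.26, 0.86 and 0.24). Of 6 duct markers 5 were negative (median -0.64), and of 5 endothelium markers 3 were positive (median 0.39). Without mouse 463 the median was -0.21, and without mouse 464 it was -0.51, with 57 of 75 members at an unadjusted p under 0.05, against 26.4% of all genes in that fit.

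Adipocyte markers differed between these mice. Mice 463, 69, 461 and 417 had the highest marker means, at 7.02, 6.38, 5.41 and 5.39 log2 CPM, and 3 of the 4 were untreated Lep(ob/ob) mice. Their means over the 75 genes were 7.21, 8.11, 7.73 and 7.51, the lowest of their group and batch in all but mouse 461. With these 4 mice left out, a choice made after seeing the data, the median over members was -0.04 for Lep(ob/ob) against WT, and 54 of 75 fold changes were negative. Mice 463 and 417, the lowest untreated Lep(ob/ob) mice of their batches for the members, were among those left out. This choice of mice thus also removed low values of the members. Mouse 464 was then the only untreated Lep(ob/ob) mouse of batch B. The part of adipose tissue in the result was not tested.

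Markers of other cell types also differed between these mice. Mouse 463 had the highest means of all 16 mice for macrophage, stroma and lymphocyte markers, at 6.07, 6.94 and 3.13 log2 CPM, and the lowest acinar mean among untreated mice, at 11.13. Mouse 417 had the lowest acinar mean of batch A, at 12.31, and mouse 69 the lowest of all, at 10.73. In Lep(ob/ob) against WT mice, 7 of 10 islet markers were higher, among them the insulin gene *Ins1* at a log2 fold change of 2.27 ± 0.50 (adjusted p = 0.00870, edgeR). Islet markers averaged 5.27 to 5.78 log2 CPM over the 5 WT mice and 5.86 to 8.26 over the 7 Lep(ob/ob) mice. Of 12 acinar markers 2 were lower, *Ptf1a* and *Amy2a5*. *Amy2a5* had only 34 to 284 reads per mouse, against 161053 or more for *Ctrb1*, and a loss of its reads in counting was not tested. Of 6 duct markers 1 was higher and 1 lower, and of 8 adipocyte markers 1 was lower (*Cfd*, at -3.15 ± 0.69). The adipocyte list as a whole went the other way, with 6 of 8 log2 fold changes positive and a median of 1.46, the largest for *Cidec*, a lipid droplet protein, at 2.24 ± 0.78 (adjusted p = 0.0849, edgeR). No macrophage (7 tested), lymphocyte (6), stroma (6) or endothelium (5) marker passed. In CCKR-I against Lep(ob/ob) mice none of these markers passed, where 0.0586% of all genes did. All 7 macrophage markers had negative log2 fold changes there, with a median of -1.19 and 6 at an unadjusted p under 0.05 (edgeR). All 6 stroma markers were negative too, with a median of -1.03 and 5 at an unadjusted p under 0.05 (edgeR), against 14.3% of all genes. Negative as well were all 6 lymphocyte and all 5 endothelium markers (medians -0.68 and -0.28). The same held for 9 of 12 acinar and 7 of 8 adipocyte markers (medians -0.51 and -0.38). All 10 islet and 5 of 6 duct markers were positive (medians 0.48 and 0.25). The part of these cell types in the results on ribosomal protein genes was not tested.

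**Figure D3:**
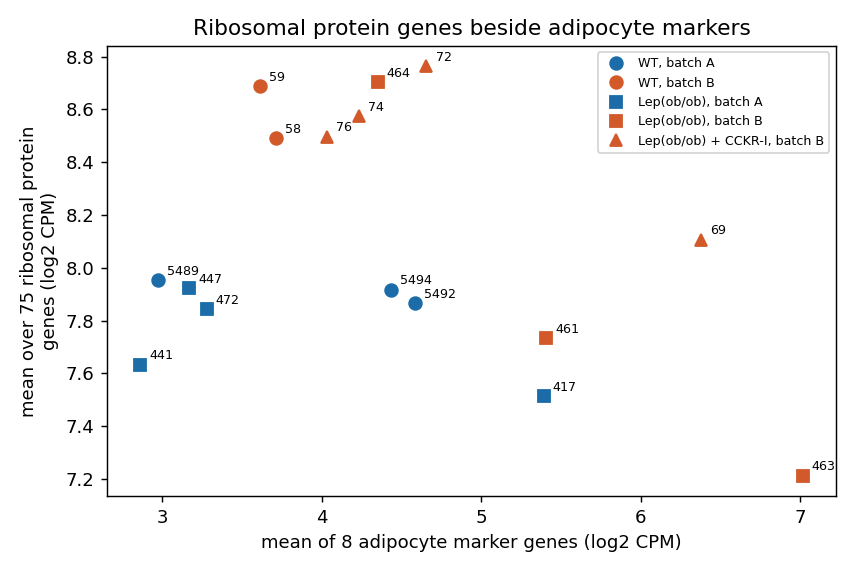
Mean log2 CPM of the 75 ribosomal protein genes (y axis) against the mean log2 CPM of 8 adipocyte markers (x axis) for each of 16 mice, with the shape for the group, the colour for the batch and the mouse number beside each point. Mouse 463 has the highest marker level, 7.02, and the lowest ribosomal protein gene level, 7.21.

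To ask what the antagonists did in obese mice, CCKR-I mice were set against Lep(ob/ob) mice on control water. No member passed the threshold (edgeR), against 0.0586% of all genes called (0.0293% higher, 0.0293% lower). An unadjusted p under 0.05 was found in 6 of 75, against 14.3% of all genes (edgeR). DESeq2 called none, against 0.761% of all genes called by that tool. The log2 fold change was positive in 70 of 75 members, with a median of 0.40 against -0.01 over all genes. The most positive were *Rps24* at 0.89 ± 0.38, *Rps27l* at 0.81 ± 0.40 and *Rps27a* at 0.77 ± 0.37 (adjusted p 0.324, 0.365 and 0.354, edgeR). Single mice moved these values, to 0.58, 0.47 and 0.47 without mouse 463 and to 1.36, 1.22 and 1.23 without mouse 464. Among the most negative were *Rpl4* and *Rpl28*, both of the large subunit, at -0.33 ± 0.26 and -0.30 ± 0.20 (adjusted p 0.550 and 0.480, edgeR), and when single mice were left out they ran from -0.57 (without CCKR-I mouse 76) to -0.16 (without CCKR-I mouse 69) and from -0.45 (without mouse 76) to -0.16 (without Lep(ob/ob) mouse 461).

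*Rps24* was at 10.97, 11.69, 11.54 and 10.90 log2 CPM in the CCKR-I mice, and at 9.48, 9.10 and 11.21 in the 3 untreated Lep(ob/ob) mice of the same batch. The groups overlapped because of mouse 464. Of all members, *Rpl34* alone had every CCKR-I mouse above every untreated Lep(ob/ob) mouse of batch B, on 0 to 15 reads, and none had every mouse below, against 4.92% and 3.57% of all genes. The median over members was 0.15 without mouse 463 and 0.70 without mouse 464 (52 of 75 at an unadjusted p under 0.05, against 21.3% of all genes, and none called). Without a batch term it was 0.63 (47 of 75 at that p, against 31.8% of all genes, and none called). It was 0.0024 without the 4 mice with the highest adipocyte markers. In that last fit mouse 464 was the only untreated Lep(ob/ob) mouse of batch B.

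Proglumide and lorglumide were given at different doses, so their values are set side by side with no comparison. The mean over the 75 genes was 8.11 and 8.76 log2 CPM in the proglumide mice and 8.58 and 8.50 in the lorglumide mice. *Rps27a* was at 9.71 and 10.39 in the proglumide mice and at 10.35 and 9.75 in the lorglumide mice.

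Against lean WT mice, the CCKR-I mice showed 1 member higher, *Rps4l*, at a log2 fold change of 1.26 ± 0.32 (adjusted p = 0.0262, edgeR), and none lower, with 5.57% of all genes called (4.22% higher, 1.35% lower). *Rps4l* was at 1.60, 1.85, 1.45 and 2.75 log2 CPM in the CCKR-I mice, all above the 2 WT mice of the same batch at 1.32 and 0.12. The call was lost without WT mouse 59 (1.02, adjusted p = 0.0898, edgeR) or CCKR-I mouse 76 (0.89, adjusted p = 0.0741, edgeR). It was also lost in batch B alone (1.26, adjusted p = 0.387, edgeR), with only these groups in the fit (1.27, adjusted p = 0.194, edgeR), with the proglumide mice alone (0.98, adjusted p = 0.138, edgeR) and without a batch term (0.75, adjusted p = 0.159, edgeR). The median over members was 0.03, with 42 of 75 fold changes positive. Its sign depended on the fit, at -0.10 both with only these groups and in batch B alone and at -0.06 without CCKR-I mouse 72, against 0.18 without WT mouse 59 and 0.16 without CCKR-I mouse 69. Apart from *Rps4l*, the most positive were *Rps6* (0.36 ± 0.33) and *Rps12* (0.33 ± 0.37), and among the most negative were *Rps2* (-0.42 ± 0.22) and *Rplp1* (-0.42 ± 0.25), none past the threshold (adjusted p 0.371 to 0.725, edgeR). Cell type markers differed here too. Of 10 islet markers 8 were higher (median 2.48), and of 6 duct markers 1 was higher and 1 lower. Of 8 adipocyte markers 1 was lower, while 7 log2 fold changes were positive (median 1.08). The part of these cell types in the result was not tested. Within batch B, 1 member was higher and 3 (*Rps26*, *Rplp0* and *Rplp1*) were lower in every CCKR-I mouse than in both WT mice, against 11.6% and 10% of all genes. These comparisons share their WT and CCKR-I mice with the others.

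The largest differences among members lay between batches. In the same model, where the batch term rests on WT and untreated Lep(ob/ob) mice, 30 members were higher and 3 lower in batch B (edgeR), against 35.7% of all genes called (18.1% higher, 17.7% lower). The median over members was 0.48 against 0.06 over all genes. Without mouse 464 it was 0.23, with 15 members higher and 8 lower, against 30.7% of all genes called in either direction. Without mouse 463 it was 0.67, with 46 members higher and 3 lower, against 33.2% of all genes. Cell type markers also differed between batches. In batch B 8 of 12 acinar markers were lower (median -1.10), among them *Amy2a5* on few reads, and 3 of 10 islet markers were lower (median -0.87). There 4 of 7 macrophage, 2 of 6 stroma and 1 of 8 adipocyte markers were higher (medians 0.99, 0.18 and 1.06). The part of these cell types in the batch difference was not tested. The 8 largest rises were *Rps24* at 1.89 ± 0.31 (adjusted p = 0.000404, edgeR), *Rps27a* at 1.52 ± 0.30, *Rpl17* at 1.44 ± 0.29, *Rpl35* at 1.42 ± 0.28, *Rps27l* at 1.37 ± 0.32, *Rps25* at 1.36 ± 0.29, *Rpl39* at 1.35 ± 0.24 and *Rpl13a* at 1.24 ± 0.28. Among those that fell were *Rps2* at -0.82 ± 0.17 and *Rps4l* at -0.76 ± 0.25 (adjusted p 0.00234 and 0.0254, edgeR). The call on *Rps4l* was lost without WT mouse 59 (-0.61, adjusted p = 0.0742, edgeR), without Lep(ob/ob) mouse 461 (-0.66, adjusted p = 0.0613, edgeR), without the 4 mice with the highest adipocyte markers and in either genotype alone (adjusted p 0.0590 to 0.169, edgeR). *Rps2*, *Rps24* and *Rps27a* all belong to the small subunit.

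*Rps24* was at 8.96, 8.88 and 8.90 log2 CPM in the WT mice of batch A and 10.91 and 11.51 in those of batch B. In Lep(ob/ob) mice it was at 8.61, 8.81, 8.42 and 8.79 in batch A and 9.48, 9.10 and 11.21 in batch B. The batches did not overlap in either genotype. *Rps2* went the other way, at 9.02, 8.95 and 9.13 against 8.25 and 7.81 in WT mice, and at 8.64, 8.79, 8.47 and 8.88 against 8.14, 7.47 and 8.28 in Lep(ob/ob) mice.

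**Figure D4:**
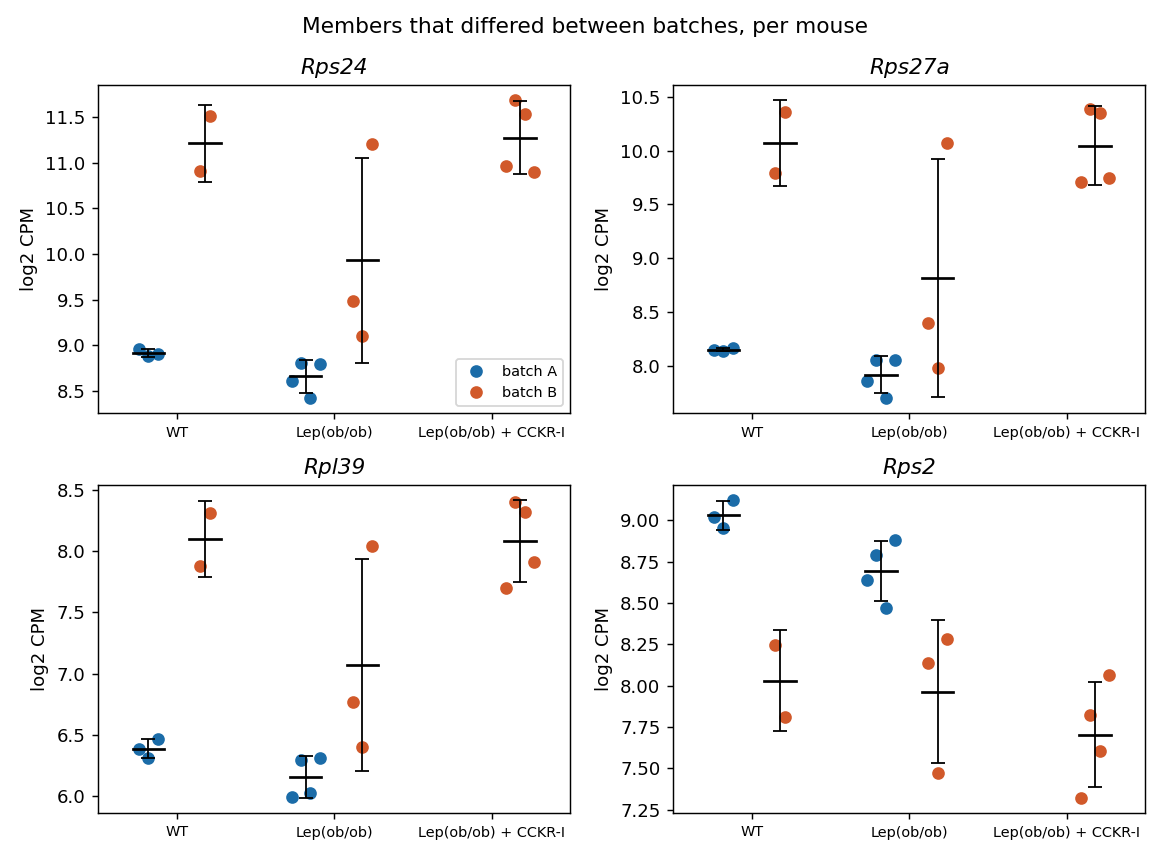
Log2 CPM (y axis) of 4 members in each mouse by group (x axis), coloured by batch, with bars for the mean and error bars for the SD. *Rps24*, *Rps27a* and *Rpl39* are higher and *Rps2* is lower in WT mice of batch B than in those of batch A.

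The ratio of 2 members' raw counts within a mouse does not depend on scaling between mice. For *Rps24* to *Rps2*, chosen like the next pair after their values were seen, it was 0.856 to 1.01 in the 7 mice of batch A and 2.54 to 15.3 in the 9 mice of batch B. In batch B it was 6.34 and 12.99 in WT mice, 2.54 to 7.59 in Lep(ob/ob) mice and 7.15 to 15.3 in CCKR-I mice. The ratio of *Rpl9* to *Rpl4*, both of the large subunit, ran from 0.307 to 0.333 in the first batch and from 0.362 to 2.27 in the second. Both ratios thus stayed in a narrow range in batch A, and their ranges in batch B were wider and did not overlap those of batch A.

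Of 75 members, 56 were higher and 12 lower in both WT mice of batch B than in all 3 of batch A, against 27.4% and 28.4% of all genes. In Lep(ob/ob) mice 2 (*Rps24* and *Rpl39*) were higher and 2 (*Rps2* and *Rps4l*) lower, against 11.3% and 15.1%. Fitted in WT mice alone, 48 members were called, against 31.2% of all genes. In Lep(ob/ob) mice alone none was called, against 8.64% of all genes, and 12 members had an unadjusted p under 0.05, against 33.5% of all genes (edgeR). The count of members called was 21 without WT mouse 59, 23 without mouse 464 and 49 without mouse 463, against 27.8%, 30.7% and 33.2% of all genes.

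GC content of the transcripts moved with the batch difference. Across the 74 coding members, Spearman's rho between the GC percent of the chosen transcript and the log2 fold change between batches was -0.50, against -0.37 across 12769 genes of any kind, where the genes share libraries and are not independent replicates. The 25 members of lowest GC (41.26 to 50%) had a median log2 fold change of 0.99, the middle 24 one of 0.55 and the 25 of highest GC (54.05 to 60.84%) one of 0.13. *Rps24* had 48.08% GC and *Rps2* 56.51%, while *Rpl35*, at 56.66%, went with the members of low GC. The chosen transcript need not be the one expressed. That of *Rpl35* had 946 bases, with 83% of its stretches shared, and its gene model reached chr2:39005624, upstream of the start site shown above. That of *Rps20*, which set the lowest GC of 41.26%, had 3706 bases. The GC and length values of such members rest on this choice. With transcript length rho was -0.17. In Lep(ob/ob) against WT mice, rho across members was 0.14 with GC and 0.48 with length, against 0.09 and 0.14 over all genes with a length. In CCKR-I against Lep(ob/ob) mice it was -0.29 and -0.23, against -0.24 and 0.03. In CCKR-I against WT mice it was -0.29 and -0.01, against -0.16 and 0.14. The part of GC content or length in any of these differences was not tested.

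**Figure D5:**
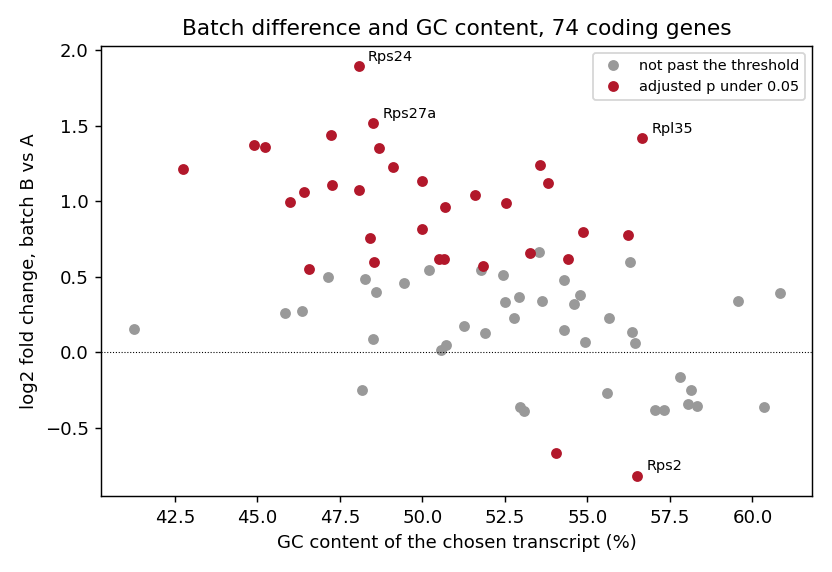
Log2 fold change of batch B against batch A (edgeR, y axis) against the GC percent of the chosen transcript (x axis) for 74 coding members, in red where the adjusted p was under 0.05. Members of low GC lie higher, with a median of 0.99 for the lowest 25 and 0.13 for the highest 25.

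Other genes of the translation machinery were followed in the same fits. Of 7 ribosomal protein genes with other kinds of symbols, 6 were tested, and none passed in Lep(ob/ob) against WT or in CCKR-I against Lep(ob/ob). Their medians were -0.35 and 0.30, and *Fau*, a fusion of a ubiquitin-like protein with a ribosomal protein, was at -0.29 ± 0.19 in Lep(ob/ob) against WT (adjusted p = 0.360, edgeR). Of 22 translation factors and other genes with TOP mRNAs, none passed in either comparison, with medians of -0.18 and 0.005. Between batches 8 rose and 7 fell, against the 18.1% and 17.7% of all genes that did, among them *Hnrnpa1*, an RNA-binding protein, at 1.82 ± 0.28 and the elongation factor *Eef2* at -1.12 ± 0.23.

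Ribosome biogenesis factors (36 of 36 tested) had medians of -0.02 and -0.04 in the comparisons of Lep(ob/ob) with WT and of CCKR-I with Lep(ob/ob), with none called. Between batches 7 rose and 2 fell, against the same 18.1% and 17.7%. Of 22 genes of MYC, mTORC1 and the S6 kinases, 21 were tested and none passed in these 2 comparisons, and *Myc* itself, a transcription factor that drives ribosome production, was at -0.47 ± 0.15 in Lep(ob/ob) against WT (adjusted p = 0.0720, edgeR). In CCKR-I against WT mice *Larp1*, which binds the TOP start, was lower at -0.76 ± 0.21 (adjusted p = 0.0431, edgeR). This call was not followed under the alternatives, which were recorded for the members only. Between batches 10 of these genes fell, *Larp1* among them at -1.10 ± 0.17, and 1 rose, again against 17.7% and 18.1% of all genes.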

How the data were processed

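Bulk RNA-seq libraries from pancreas of 16 mice were analysed. Per the labels, mRNA was selected with oligo-dT beads and libraries were strand-specific. The submitters' processing notes name Trim Galore (0.6.7), cutadapt (3.5), STAR (2.7.9) with mm10, and DESeq2. The read counter, strand setting and annotation were not given in the sources used here. The authors deposited raw counts per gene symbol for 24411 rows. The table of normalized values was not used here.

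Members and gene lists were chosen with earlier results of these data known. Genes were filtered with filterByExpr (13660 kept), normalized by TMM and tested with edgeR (4.0.16) quasi-likelihood F-tests on group and batch over all 16 mice, with Benjamini-Hochberg adjustment over all genes and a threshold of 0.05. The SE is the log2 fold change divided by the square root of F. Log2 CPM used a prior count of 2. The code was tested on simulated data. P-values are two-sided and measure the spread between mice. Named genes were those past the threshold (up to 8 in each direction), the 3 most positive and 3 most negative per comparison, a list chosen by role, and the 3 highest per length. Transcripts, GC and shared stretches came from GENCODE M21 (the shortest coding transcript of the CCDS set), and start sites from RefSeq. Other normalizations, filters, groups of mice, single mice left out and DESeq2 (1.42.0) were tried as alternatives. Single values of some members that the naming rule picks are not reported here.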

Additional observations from a re-analysis of the deposited data

Results flagged for a closer look

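In each of the 3 groups, the highest and lowest mouse were set against the others for 26 named members and for the mean over members, 81 tests in all. Of these, 15 had a mouse farther from its neighbours than Dixon's limit allows. Chance gives about 1 in 20 for mice of one population, but the tests pooled the mice of both batches in the WT and Lep(ob/ob) groups, and many of the members were named for their difference between batches, so the 15 cannot be read against that share. Lep(ob/ob) mouse 464 of batch B stood above the other Lep(ob/ob) mice of both batches in 12 of the 15. Its level was 11.21 log2 CPM for *Rps24* (others 8.42 to 9.48), 10.74 for *Rpl17* (8.47 to 9.24), 10.38 for *Rpl13a* (8.31 to 8.86), 10.37 for *Rpl32* (8.41 to 9.10) and 10.09 for *Rps25* (7.91 to 8.53). It was 10.08 for *Rps27a* (7.70 to 8.40), 9.91 for *Rps12* (7.87 to 8.34), 9.52 for *Rpl35* (7.10 to 8.05) and 9.51 for *Rps6* (7.57 to 8.26). It was 8.20 for *Rps27l* (5.95 to 6.58), 8.04 for *Rpl39* (5.99 to 6.77) and 8.02 for *Rpl38* (6.38 to 6.90). These genes share a library, so the 12 are not independent.

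WT mouse 59 was low for *Rpl4*, at 9.09 log2 CPM (others 9.77 to 10.02), and for *Rps4l*, at 0.12 (1.32 to 1.72). CCKR-I mouse 69 was low for *Rplp1*, at 7.76 (others 8.35 to 8.45).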

How the results depend on the processing

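Between Lep(ob/ob) and WT mice the count of members called was 1, and it was 0 without a batch term, 0 in batch B alone, 2 in batch A alone and 2 with DESeq2, where *Rplp1* joined *Rps4l*, while 5.84%, 0.057%, 8.68% and 12.4% of all genes were called. It was 0 to 2 when single mice were left out, while 6.14 to 10.5% of all genes were called. Between CCKR-I and Lep(ob/ob) mice it was 0 under every alternative run, while 0 to 4.17% of all genes were called. The median over members, 0.40, was 0.63 without a batch term. There 47 of 75 members had an unadjusted p under 0.05, against 31.8% of all genes. The median was 0.0024 without the 4 mice with the highest adipocyte markers (added after seeing the data). That fit kept mouse 464 as the only untreated Lep(ob/ob) mouse of batch B. Between CCKR-I and WT mice the count was 1, and it was 0 with only the 2 groups compared, 0 in batch B alone and 0 with proglumide mice alone, while 2.18%, 0.0926% and 1.65% of all genes were called. It was 0 to 1 when single mice were left out, while 3.7 to 6.15% of all genes were called. Without a batch term the member called was *Rps2*, lower at -0.99, while 10.5% of all genes were called. Between batches it was 33. It was 58 without those 4 mice and 0 in untreated Lep(ob/ob) mice alone (both added after seeing the data), while 45% and 8.64% of all genes were called. Without those 4 mice, mouse 464 was again the only untreated Lep(ob/ob) mouse of batch B. The count was 21 to 49 when single mice were left out, while 27.8 to 36.6% of all genes were called. The causes were not tested.

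Normalization by RLE factors, or by TMM without the 50 most counted genes or without the members, changed none of the 4 counts, nor did leaving the low-count filter off or asking for at least 10 counts in every mouse move one by more than 1.5 times. Of 609 refitted values for 28 results on single genes, 577 kept their direction and side of the threshold, 28 lost a call, 4 gained one and none changed sign. No paired analysis was possible because the groups have no mouse number in common. With 2 WT mice in batch B and all CCKR-I mice there, the treated groups were weighed against few mice, and *Rps4l* and *Rpl34* rest on few reads.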
